A study of Rattus norvegicus with 22 samples.

Results

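miR-132 and miR-212 are microRNAs cut from a pair of neighbouring hairpins on rat chromosome 10. The names described here are rno-miR-132-3p, rno-miR-132-5p, rno-miR-212-5p and rno-miR-212-3p, which are all the miR-132 and miR-212 names, either arm, among the 468 miRNA names in the files (4 of 468). They were chosen because measured values of these same libraries set their main arms apart between exposed and control rats. The exposed-against-control values of the 4 names are therefore given as a description, and nothing is read from a test of them.

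A microRNA (miRNA) is a short RNA that guides silencing proteins to messenger RNAs, chiefly by pairing of its seed, the bases near its 5′ end. Each hairpin can give a mature miRNA from its 5′ arm (5p) and from its 3′ arm (3p), and usually a single arm is kept. In neurons, the miR-132 and miR-212 transcript is known to be induced by electrical activity and by neurotrophins through the transcription factor CREB, and miR-132 is known for roles in dendrite growth, spine density and memory. The acetylcholinesterase messenger RNA is a known target of miR-132, and acetylcholinesterase, which breaks down the transmitter acetylcholine, is the enzyme that organophosphate insecticides block.

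Small RNA was sequenced from the hippocampus, area CA1 according to the extraction protocol, of male Long Evans rats aged 14 weeks. The CPF group (11 libraries) had received chlorpyrifos, an organophosphate insecticide, at 10 mg/kg per day by subcutaneous injection on 21 consecutive days from 11 weeks of age, and the control group (11 libraries) had received the peanut oil vehicle on the same schedule. The protocol describes a cohort trained and tested for fear conditioning in the last days of dosing and a cohort with no behavioural test, but the labels used here do not say to which cohort a library belongs. No label ties a library to an animal, so the spread between libraries may be partly technical. Values are RPM, the reads of a name per 1000000 miRNA reads of its library.

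Read numbers recovered from the steps of the RPM values came to 47844 to 94980 per library (control 70880 ± 6709, CPF 74134 ± 12857, SD, n = 11 each). A single read was worth 10.5 to 20.9 RPM, and the 3 reads used as a floor were worth 31.6 to 62.7 RPM. Of 13 neuron-enriched names used as a check of the tissue, 10 were above 0 in every library and 12 were tested, and together the 13 held 5.36 to 7.86% of the RPM in control and 5.59 to 7.76% in CPF. Most of that share was a single name, miR-9a-5p (52435 ± 7700 RPM in control and 50852 ± 7160 RPM in CPF, SD, n = 11 each). RPM values are shares of a bulk sample, in which fewer cells of a type and less RNA per cell cannot be told apart.

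The mature sequences show which of the 4 miRNAs can recognise the same sites, and they are given here with the seed (bases 2 to 8) in capitals. They were taken from RefSeq on the GRCr8 build, 5′ to 3′, where all 4 names were matched.
rno-miR-132-3p: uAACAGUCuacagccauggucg
rno-miR-212-3p: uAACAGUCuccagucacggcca
rno-miR-132-5p: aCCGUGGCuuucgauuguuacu
rno-miR-212-5p: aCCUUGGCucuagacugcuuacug
The 3p arms share the seed AACAGUC, and no other measured name with a sequence (410 of 468 names had one) has it. Over their 22 bases the 3p arms are identical at 17 positions, and the 5 substitutions all lie outside the seed: A10C, C14U, U17C, U20C and G22A, with the base of miR-132-3p first and positions counted from 1 at the 5′ end. The 5p arms differ inside the seed by G4U, with the base of miR-132-5p first. Each of their seeds, CCGUGGC in miR-132-5p and CCUUGGC in miR-212-5p, belongs to a single measured name. The abundant product of the miR-212 hairpin in these libraries was the 5p arm, so the abundant products of the neighbouring hairpins carry different seeds.

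On the plus strand of chromosome 10, miR-212-5p lies at chr10:60521771-60521794, miR-212-3p at chr10:60521811-60521832, miR-132-5p at chr10:60522055-60522076 and miR-132-3p at chr10:60522091-60522112. The annotated Mir212 and Mir132 genes are 182 bases apart, with the protein-coding gene Hic1 as the next listed gene on one side and a long non-coding RNA gene, LOC120095261, on the other. The miR-132 hairpin is shown with both mature arms in capitals, because the contrast between its abundant and its rare arm returns in the read numbers.
rno-mir-132 hairpin (chr10:60522033-60522133, plus strand): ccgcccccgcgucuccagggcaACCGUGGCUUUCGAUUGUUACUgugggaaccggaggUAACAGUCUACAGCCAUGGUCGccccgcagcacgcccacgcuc
The stretch that runs from between the genes to the end of the miR-132 hairpin is shown because the cluster is known as a CREB target. Capitals mark the letters TGACGTCA, the palindromic cAMP response element that CREB binds, and the mature arms of miR-132.
between Mir212 and the end of Mir132 (chr10:60521892-60522133, plus strand): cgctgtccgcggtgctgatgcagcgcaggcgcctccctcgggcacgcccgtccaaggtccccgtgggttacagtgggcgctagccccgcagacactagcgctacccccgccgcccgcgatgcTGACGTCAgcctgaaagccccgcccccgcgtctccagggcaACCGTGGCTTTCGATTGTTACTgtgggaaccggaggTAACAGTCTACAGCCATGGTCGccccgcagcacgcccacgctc
TGACGTCA reads the same on both strands, and it occurs 1 time in this stretch, ending 11 bases before the hairpin. Among 33469 RefSeq gene start windows of 300 bases (250 before and 50 after the start), 612 (1.83%) hold it. The stretch shown is part of 1 of these windows, that of LOC120095261, and no window was listed for Mir132 or Mir212. The match is a description of the letters, and binding was not measured in these libraries.

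miR-132-3p, the arm with the known neuronal targets, was present in every library and was higher in CPF. In control it ranged from 409 RPM (replicate 4) through a median of 700 RPM to 967 RPM (replicate 3), with a mean of 698 ± 159 RPM (SD, n = 11). In CPF it ranged from 690.5 RPM (replicate 2) through a median of 1243 RPM to 1827 RPM (replicate 6), with a mean of 1292 ± 362 RPM (SD, n = 11). The groups overlapped at their edges: 9 of 11 CPF libraries lay above the highest control library, and 5 of 11 control libraries lay below the lowest CPF library. The ratio of the means was 1.85, and the difference was 0.87 on the log2(RPM + 1) scale (SE 0.154). The reads behind these values numbered 31 to 61 per control library and 46 to 137 per CPF library.

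miR-212-5p, the abundant arm of the neighbouring hairpin, differed by less in level but was less variable. Control libraries ranged from 707 RPM (replicate 3) through a median of 823 RPM to 1070 RPM (replicate 9), with a mean of 820 ± 106 RPM (SD, n = 11). CPF libraries ranged from 869 RPM (replicate 7) through a median of 1126 RPM to 1310 RPM (replicate 3), with a mean of 1101 ± 129 RPM (SD, n = 11). All 11 CPF libraries were above the control median, 8 of them were above the highest control library, and 9 of 11 control libraries were below the lowest CPF library. The ratio of the means was 1.34, and the difference was 0.43 on the log2(RPM + 1) scale (SE 0.0864). Reads per library numbered 38 to 82 in control and 58 to 108 in CPF.

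**Figure D1:**
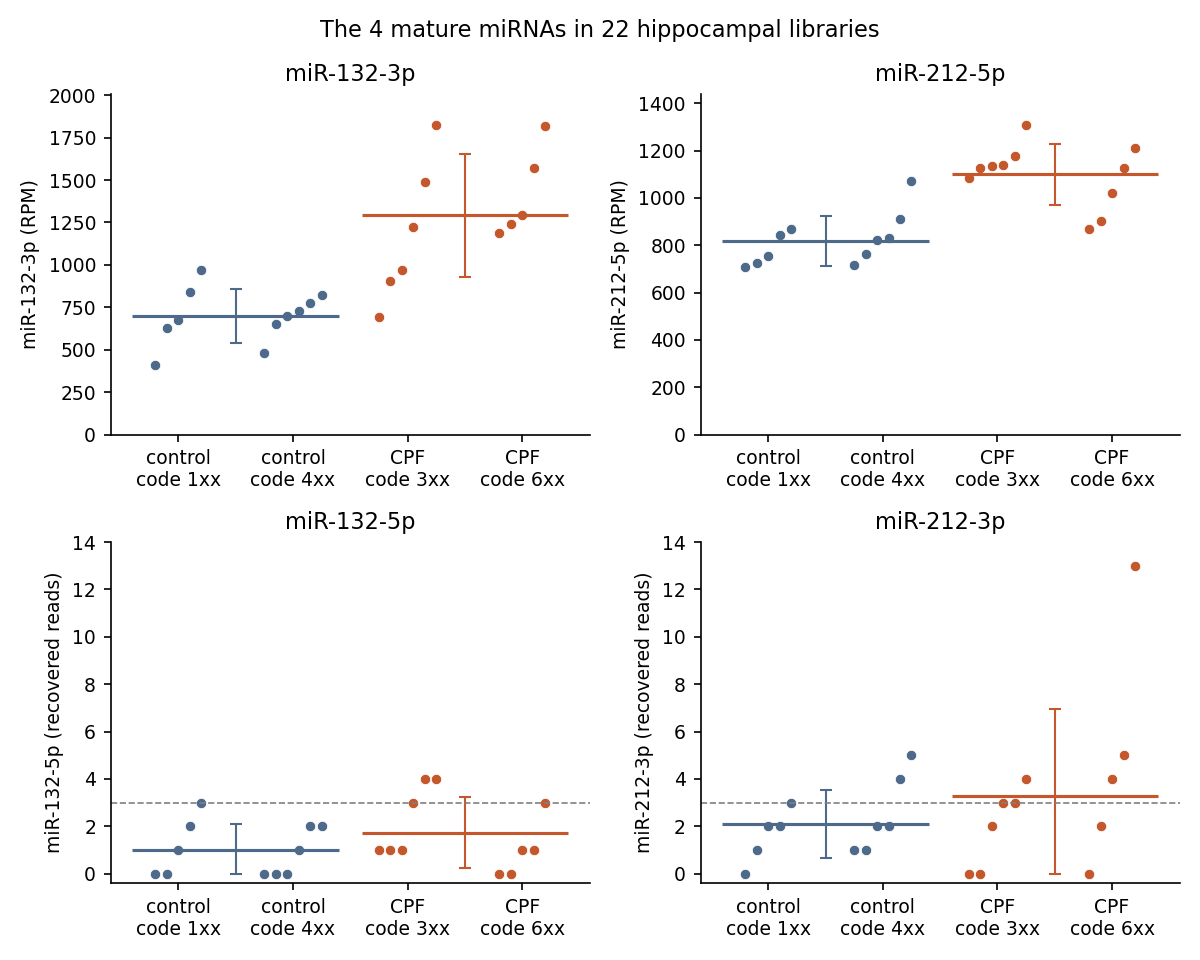
Each point is 1 library, placed by group and by the first digit of its library code and, within these, in order of value. The upper panels give RPM of the abundant arms and the lower panels give recovered reads of the rare arms, with horizontal lines for group means, bars for SD (lower end not drawn below 0) and a dashed line at 3 reads. Most CPF libraries sit above the control libraries for the abundant arms, while the rare arms lie mostly at 3 reads or fewer.

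The same test over all names puts these sizes beside the rest of the libraries. With limma on log2(RPM + 1), 2 of 273 tested names (0.733%) passed an adjusted p of 0.05 between CPF and control, and these were miR-132-3p and miR-212-5p. Because the names were picked from this contrast, nothing is read from that count. The median difference over the 273 names was 0.02, with 145 above 0 and 128 below. Seen by rank of abundance, the mean of miR-132-3p stood at place 65 in control and 50 in CPF, and that of miR-212-5p at place 61 in control and 52 in CPF.

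**Figure D2:**
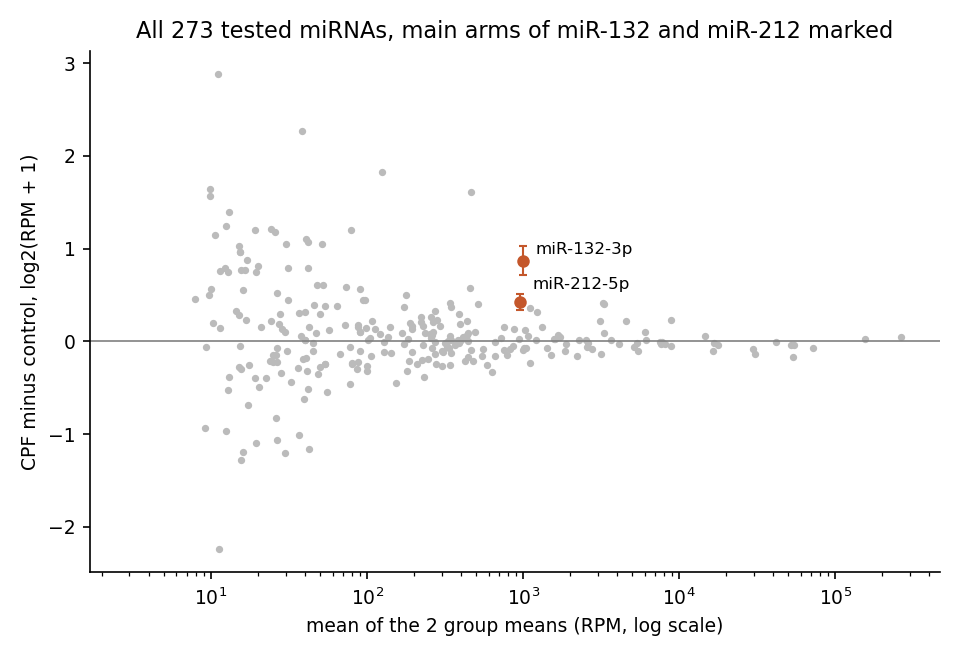
Each grey point is a tested miRNA, with the mean of the group means (RPM, log scale) on the horizontal axis and the log2(RPM + 1) difference, CPF minus control, on the vertical axis. The red points are miR-132-3p at 0.87 and miR-212-5p at 0.43, with bars for the standard error, and points farther from 0 than miR-132-3p lie mostly at low abundance.

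The other arm of each hairpin was near the limit of detection. miR-132-5p had 0 to 3 reads per control library (11 in all, none in 5 libraries) and 0 to 4 reads per CPF library (19 in all, none in 2 libraries). Its means were 14.8 ± 16.2 RPM in control and 23.7 ± 21.9 RPM in CPF (SD, n = 11 each), both under the value of 3 reads, so no fold is given. miR-212-3p, which shares its seed with miR-132-3p, had 0 to 5 reads per control library (23 in all) and 0 to 13 reads per CPF library (36 in all). Its means were 28.9 ± 18.8 RPM and 42.9 ± 42.9 RPM (SD, n = 11 each). CPF replicate 11 alone gave 13 of the 36 CPF reads, while 3 CPF libraries and 1 control library had none. On the log2(RPM + 1) scale the miR-212-3p difference was -0.28 (SE 0.882), opposite in sign to the difference of the RPM means, so these libraries give no direction for it.

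Arm use can be read from the pooled reads. Of the miR-132 reads, the 5p arm took 11 of 550 in control (2.0%, exact 95% interval 1.00 to 3.55%) and 19 of 1064 in CPF (1.79%, 1.08 to 2.77%). Of the miR-212 reads, the 3p arm took 23 of 664 in control (3.46%, 2.21 to 5.15%) and 36 of 929 in CPF (3.88%, 2.73 to 5.32%). The intervals, which cover counting error only, overlap between the groups for each hairpin. Per library the rare arm reached at most 4.69% for miR-132 in control, 3.90% for miR-132 in CPF, 6.25% for miR-212 in control and 11.7% for miR-212 in CPF. The ratio of mean RPM, abundant over rare arm, was 47.0 in control and 54.6 in CPF for miR-132, and 28.4 and 25.6 for miR-212. How well each arm was captured during library preparation was not measured, so these ratios compare reads and not molecules.

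The balance between the abundant arms shifted from library to library. The ratio of miR-132-3p to miR-212-5p ran from 0.564 to 1.37 in control (median 0.85, mean 0.864 ± 0.241, SD, n = 11), and 3 of 11 libraries had more miR-132-3p than miR-212-5p. In CPF it ran from 0.605 to 1.78 (median 1.13, mean 1.19 ± 0.349, SD, n = 11), with 8 of 11 libraries above 1. The ranges overlap over most of their length. Summed over both hairpins and both arms, the 4 names made up 0.156% of the RPM in control (1561 ± 199 RPM, SD, n = 11) and 0.246% in CPF (2460 ± 411 RPM, SD, n = 11).

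The abundant arms also differed in how far libraries of the same group scattered. A value of 1 for the spread between libraries divided by that of read counting alone means that counting error accounts for all of it. For miR-212-5p this value was 1.005 in control and 1.12 in CPF. For miR-132-3p it was 2.46 in control and 7.43 in CPF. Of the 101 miRNAs averaging at least 20 reads in both groups, 85 scattered more than miR-212-5p in control and 83 in CPF, whereas 55 and 24 scattered more than miR-132-3p. The medians over these miRNAs were 2.90 in control and 3.01 in CPF. The coefficient of variation was 22.8% in control and 28.0% in CPF for miR-132-3p, against 13.0% and 11.7% for miR-212-5p. Values tended to be higher for miRNAs with more reads, but the abundant arms had similar reads, a mean of 49.0 for miR-132-3p and 58.3 for miR-212-5p in control and 95 and 81.2 in CPF. These are descriptions of the libraries, and the difference in scatter between the arms was not tested.

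**Figure D3:**
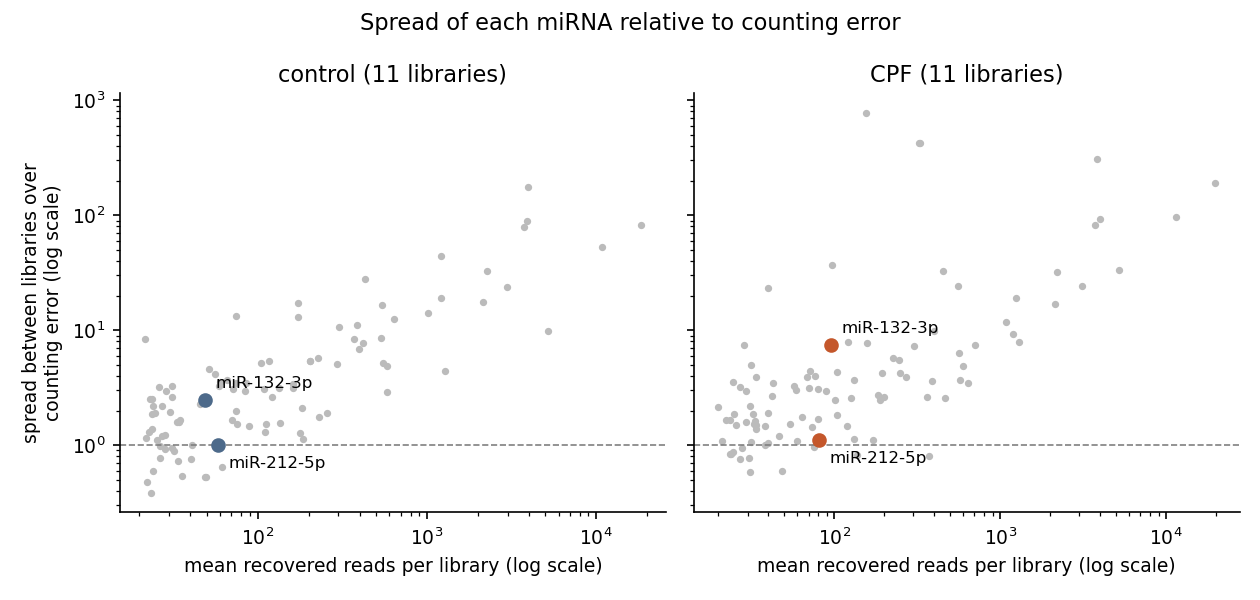
Each point is a miRNA averaging at least 20 reads in both groups, with the mean reads per library on the horizontal axis (log scale) and the spread between libraries over that of read counting on the vertical axis (log scale), control and CPF in separate panels. The dashed line at 1 marks counting error alone, on which miR-212-5p nearly lies (1.005 and 1.12), while miR-132-3p lies above it (2.46 and 7.43).

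Whether the products of the neighbouring hairpins rose and fell together between libraries was asked within each group, a relation that the choice of the names did not use. Within control, the log2(RPM + 1) levels of miR-132-3p and miR-212-5p had a Pearson r of 0.05 (permutation p = 0.8896, adjusted p = 0.927) and a Spearman rho of -0.23 (permutation p = 0.5037, adjusted p = 0.904, n = 11). Without the libraries farthest from the median of miR-132-3p, control replicates 4 and 11, r was -0.59. Within CPF, r was 0.03 (permutation p = 0.9272, adjusted p = 0.927) and rho was 0.10 (permutation p = 0.7754, adjusted p = 0.906, n = 11), and without CPF replicates 2 and 6 r was 0.04. In the whole family of 12 relations, all pairs of the 4 names in both groups, none passed the adjusted threshold, and the lowest permutation p for Pearson's r was 0.3294. Every pair other than miR-132-3p with miR-212-5p includes miR-132-5p or miR-212-3p, which averaged 1.0 to 3.27 reads per library. At so few reads counting error leaves little room for a correlation, so nothing is read from those pairs. The spread of miR-212-5p was also close to that of counting, which limits how large its correlation with miR-132-3p could be. Single libraries went either way: CPF replicate 3, highest in miR-212-5p at 1310 RPM, had 1486 RPM of miR-132-3p, while control replicate 9, the highest control in miR-212-5p at 1070 RPM, had 653 RPM of miR-132-3p.

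**Figure D4:**
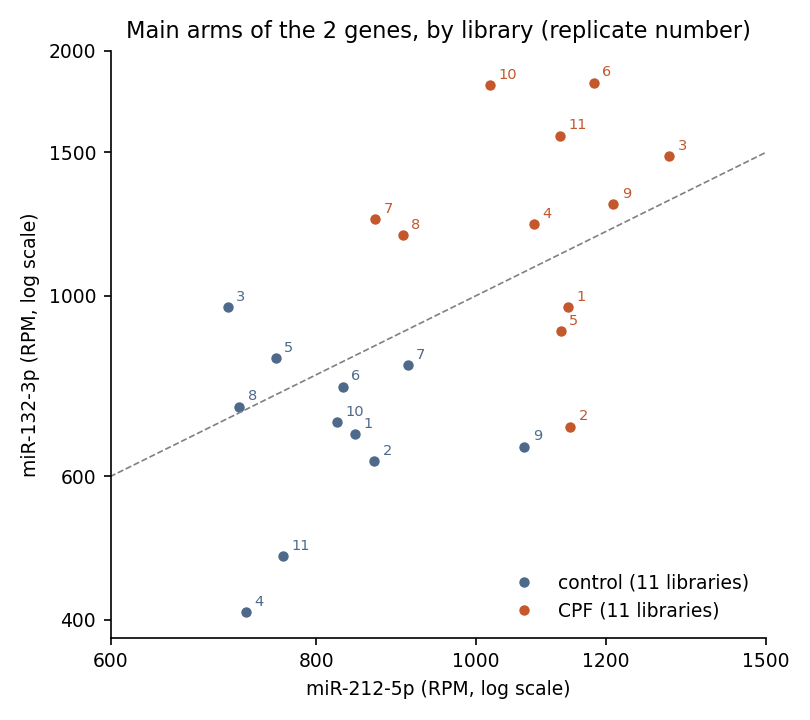
Each point is 1 library, with its replicate number, miR-212-5p (RPM, log scale) on the horizontal axis and miR-132-3p (RPM, log scale) on the vertical axis, coloured by group, and a dashed line where the levels are equal. Most CPF points lie towards the upper right of the control points, and r within a group was 0.05 in control and 0.03 in CPF.

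Library codes begin with the digit 1 (5 libraries) or 4 (6) in control and 3 (6) or 6 (5) in CPF, a digit with no stated meaning in the labels. For miR-132-3p the order of the means was code 6 at 1423 ± 265 RPM, code 3 at 1184 ± 418 RPM, code 1 at 703 ± 213 RPM and code 4 at 693 ± 120 RPM (SD). All 5 libraries of code 6 (1188 to 1816 RPM) lay above the highest control library, while those of code 3 ran from 690.5 to 1827 RPM. For miR-212-5p the order was code 3 at 1163 ± 78.3 RPM, code 6 at 1026 ± 145 RPM, code 4 at 852 ± 125 RPM and code 1 at 780 ± 72.2 RPM (SD). Here it was the 6 libraries of code 3 (1085 to 1310 RPM) that all lay above the highest control library, while code 6 ran from 869 to 1212 RPM. So the top CPF subset differed between the abundant arms, and the ratio of miR-132-3p to miR-212-5p exceeded 1 in 5 of 5 libraries of code 6 and in 3 of 6 of code 3.

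Neighbours in these orders that belong to the same group could be tested, since the choice of names did not use the digits. In limma with a mean for each digit, 0 of 273 names (0%) passed for code 4 against code 1 in control, with 10 at an unadjusted p under 0.05, and edgeR and DESeq2 on recovered reads also gave 0. On the log2(RPM + 1) scale, miR-132-3p differed by 0.02, code 4 minus code 1 (95% interval -0.43 to 0.46, adjusted p = 0.991 by limma). The same difference of miR-212-5p was 0.12 (-0.12 to 0.37, adjusted p = 0.947 by limma). For code 6 against code 3 in CPF, 0 of 273 names (0%) passed in limma, with 19 at an unadjusted p under 0.05, while edgeR called 1 name (miR-1298) and DESeq2 called 2 (miR-1298 and miR-448-3p). Code 6 minus code 3, miR-132-3p differed by 0.32 (-0.13 to 0.77, adjusted p = 0.814 by limma). The same difference of miR-212-5p was -0.19 (-0.43 to 0.06, adjusted p = 0.814 by limma). The intervals do not show the subsets to be alike, and the opposite signs of the last differences were not tested against each other.

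The miRNAs whose levels most resembled each abundant arm were ranked by the mean of the within-control and the within-CPF Pearson r, over 11 libraries each, among 124 candidates averaging at least 200 RPM. For miR-132-3p these were let-7c-5p (mean r 0.53), miR-410-3p (0.46), miR-28-3p (0.46), miR-361-5p (0.45) and miR-27b-5p (0.44). For miR-212-5p they were miR-411-5p (0.61), miR-99b-5p (0.55), miR-434-5p (0.54), miR-136-3p (0.54) and miR-30d-5p (0.51). The leading names ranged widely in abundance, from let-7c-5p at 267 ± 104 RPM to miR-30d-5p at 73180 ± 3222 RPM in control (SD, n = 11). With each other the abundant arms had a mean r of 0.04, which put miR-212-5p at place 46 of 124 for miR-132-3p and miR-132-3p at place 64 of 124 for miR-212-5p. At the other end, the lowest mean r among the 124 candidates was -0.52 for miR-132-3p and -0.80 for miR-212-5p. The medians were -0.02 and 0.05. The negative end thus lay about as far from 0 as the top names for miR-132-3p, and farther for miR-212-5p. All these values share the library totals, and they carry no test. Whether the top values exceed what the best of 124 candidates would reach by chance was not tested.

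Among the nearest other miRNA genes on the chromosome, only miR-22-3p, from the Mir22 gene, was abundant. It had 4250 ± 803 RPM in control and 4875 ± 410 RPM in CPF (SD, n = 11 each), a difference of 0.21 on the log2(RPM + 1) scale (SE 0.0836, limma adjusted p = 0.431). The 9 other measured names from Mir324, Mir497, Mir195, Mir22 and Mir423 averaged 0.0909 to 3.18 reads per library in each group, too few to compare, and Mir6326 is not analysed here.

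Other miRNAs that neuronal activity is known to regulate, or that act at synapses, were taken as a list, without miR-132 and miR-212. Of 27 names 23 were tested and 0 passed in limma (0.733% of all tested names did), with 16 above 0 and 7 below and a median log2 difference of 0.15, beside 0.02 over all tested names. The 2 names behind that share were miR-132-3p and miR-212-5p, so a list without them could only give 0 in limma. This holds for all lists here and below, and nothing is read from their counts of 0. The most abundant names matched were miR-9a-5p, at 52435 ± 7700 RPM in control and 50852 ± 7160 RPM in CPF, and miR-128, at 7674 ± 1352 and 7558 ± 1626 RPM (SD, n = 11 each). The tested members of this list that reached an unadjusted p under 0.05, named after their values were seen, were miR-329-5p (25.0 ± 27.9 and 51.4 ± 23.3 RPM) and miR-128-3p (693 ± 74.8 and 572 ± 171 RPM). The control mean of miR-329-5p was under the value of 3 reads. Of the other names above 0, miR-124-5p, miR-134-5p, miR-135a-3p, miR-379-5p and miR-485-3p averaged under that value in both groups, while the names below 0 averaged above it. The count above 0 and the median of 0.15 therefore rest partly on names near the limit of detection. The more abundant name written miR-128 differed by -0.03 on the log2(RPM + 1) scale (limma adjusted p = 0.972). Names were matched as written in the list, under which miR-188 and miR-191 had no match, but the files hold miR-191a-5p at 17992 ± 1066 RPM in control and 17587 ± 1465 RPM in CPF (SD, n = 11 each). With a wider match, added after the data were seen, which takes in such names and the copy numbers of a gene, 30 names of this list were tested, 0 passed, 20 were above 0 and 10 below, and the median was 0.09. Other miRNAs linked to the acetylcholinesterase transcript were represented by 3 tested names of 4, of which 0 passed, 0 reached an unadjusted p under 0.05 and all 3 lay below 0, with a median of -0.07. With the wider match 5 were tested, 0 passed and 1 was above 0, miR-125b-1-3p, which averaged under the value of 3 reads in both groups. The most abundant were miR-186-5p (1064 ± 152 RPM in control, 1028 ± 234 RPM in CPF) and miR-125b-5p (1041 ± 228 and 981 ± 129 RPM, SD, n = 11 each), levels close to those of the abundant arms described here. Over all 273 names, 18 reached an unadjusted p under 0.05. edgeR and DESeq2 on recovered reads called no member of either list, but edgeR tested only 140 names, which may leave out low names of the lists.

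Markers of cell types were compared in the same way. Of the neuron list, 7 tested names were above 0 and 5 below (median 0.01), with 0 passing and 1 at an unadjusted p under 0.05 (miR-128-3p), and miR-124-3p, a neuronal miRNA, had 718 ± 220 RPM in control and 778 ± 178 RPM in CPF (SD, n = 11 each). miR-124-3p stands outside the rule for named miRNAs and was picked after its values were seen. Of the neuron names above 0, miR-124-5p averaged under the value of 3 reads in both groups. For oligodendrocytes both tested names, miR-338-3p (55889 ± 11908 and 50330 ± 13800 RPM) and miR-338-5p (2313 ± 350.0 and 2101 ± 453 RPM), were below 0 with 0 passing and 0 at an unadjusted p under 0.05. miR-219a of this list had no match as written, and with the wider match miR-219-5p (337 ± 93.2 and 351 ± 127 RPM, above 0) and miR-219-2-3p (1018 ± 214 and 962 ± 241 RPM, below 0) joined it, again with 0 passing. Microglial and inflammatory names were low, with miR-146a-5p at 135 ± 55.0 and 145 ± 44.0 RPM and miR-142-5p at 52.0 ± 30.0 and 47.8 ± 19.5 RPM, and 1 of 3 tested names was above 0, with 0 passing and 0 at an unadjusted p under 0.05. Vessel and muscle names held 22.2 to 28.4% of the RPM in control and 22.1 to 31.3% in CPF, nearly all of it miR-143-3p, with miR-126a-3p at 1575 ± 186 and 1600 ± 181 RPM, and 4 of 5 tested names were above 0, with 0 passing and 1 (miR-133a-3p, below 0) at an unadjusted p under 0.05. miR-133a-3p averaged 17.5 ± 13.4 RPM in control and 4.91 ± 6.84 RPM in CPF, both under the value of 3 reads. The only tested red blood cell name, miR-144-5p, averaged 16.5 ± 8.05 and 14.8 ± 17.7 RPM, and miR-144-3p 6.31 ± 9.51 and 5.06 ± 9.74 RPM, all under the value of 3 reads. edgeR and DESeq2 called no name of these lists. miR-155, miR-486 and, of the choroid plexus list, miR-1264 and miR-449a had no match under either matching.

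Choroid plexus and ependymal markers were high in some CPF libraries. All 7 tested names of the list, 9 names in all, were above 0 (median 1.61), with 0 passing in limma and 4 at an unadjusted p under 0.05 (miR-1298, miR-448-3p, miR-34b-3p and miR-34c-5p). edgeR called miR-1298 and DESeq2 called miR-1298 and miR-448-3p, and none of the 9 was at 0 in all libraries. Their summed level was 0.0580 to 0.110% of the RPM in control and 0.0635 to 0.801% in CPF, led by miR-1298 (133 ± 77.6 and 795 ± 1243 RPM) and miR-34c-5p (332 ± 105 and 579 ± 471 RPM, SD, n = 11 each). Of the tested names, miR-34b-3p, miR-34b-5p and miR-34c-3p averaged under the value of 3 reads in both groups, so the count above 0 rests partly on them. miR-34b-3p (3.18 ± 6.82 RPM in control, 18.8 ± 12.1 RPM in CPF, SD) reached the filter of 10 RPM in 11 libraries mainly through CPF. Its sign and unadjusted p were therefore partly set by the filter. By code, miR-34b-3p was higher in code 3 (22.2 ± 6.18 RPM) than in code 6 (14.8 ± 16.7 RPM, SD), both under the value of 3 reads. In the sum, CPF replicates 1, 2 and 4 (0.1232, 0.1156 and 0.1168%) lay slightly above the highest control library (0.1097%). The highest sums, 0.2285 to 0.8005%, belonged to CPF replicates 7, 8 and 9, all of code 6. miR-132-3p averaged 1242 ± 54.1 RPM in those 3 libraries and 1311 ± 430 RPM in the other 8 CPF libraries (SD). miR-212-5p averaged 995 ± 189 RPM in those 3 and 1141 ± 83.1 RPM in the other 8 (SD). Without the 3 libraries the CPF minus control difference was 0.87 for miR-132-3p and 0.48 for miR-212-5p on the log2(RPM + 1) scale. With all libraries the differences were 0.87 and 0.43. The names were chosen from this contrast, so these values are a description. Whether choroid plexus tissue contributed to either difference was not tested.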

How the data were processed

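Small RNA libraries from 22 hippocampal samples (11 CPF, 11 control) were prepared with Illumina's TruSeq small RNA chemistry for a HiScanSQ, per the labels' protocols. Build rn4 and the tools Bowtie, cutadapt 1.2, Partek 6.6 and CASAVA 1.8.2 are listed in the submitters' processing notes. The authors deposited RPM values (reads per 1000000) for each miRNA name, per the file headers. The names sum to 1000000 RPM in a library except control replicate 2, whose file holds 432 of the 468 names. Rows of 13 repeated names were summed. Whole reads were estimated from the RPM steps, and 92.8 to 97.4% of values per library came out whole (within 0.02 RPM plus 0.0003 RPM per read).

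Tests used limma 3.58.1 in R 4.3.3 on log2(RPM + 1), for names reaching 10 RPM in 11 or more libraries, two-sided, with Benjamini-Hochberg adjustment over all of them and a threshold of 0.05. A single read was worth more than 10 RPM in every library, so the tested names include some that averaged under 3 reads. Correlations used two-sided permutation tests with 100000 resamples (scipy 1.17.1). edgeR 4.0.16 and DESeq2 1.42.0 were run on the recovered reads of the 432 names held by all libraries. After its own filter edgeR tested 140 of these names for CPF against control and 148 for each comparison of codes. Arm shares have exact Clopper-Pearson 95% intervals. The fits were also run on simulated reads, with a single dispersion for all names and changes in many of them. Both settings differ from these libraries, so nothing here rests on that run. All 231 pairs of libraries differed by more than counting error (chi-square over its degrees of freedom at least 2.42). Other alternatives were another pseudocount, filter or scaling and leaving out libraries.

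The members and lists were chosen with earlier results of these data known. Other names in the text are the 5 most alike miRNAs of each abundant arm, the products of the 3 nearest miRNA genes on either side, and the 2 most abundant names of each list. miR-409b, miR-448-3p, miR-204-5p, miR-34b-3p, miR-329-5p, miR-128-3p, miR-133a-3p, miR-124-3p and the names of the wider match were named after their values were seen. The same holds for the list names given as averaging under the value of 3 reads. Sequences are from RefSeq, GRCr8, matched by name. Neighbouring genes were taken by name and order from the RefSeq table.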

Additional observations from a re-analysis of the deposited data

How the results depend on the processing

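The miR-132-3p difference between CPF and control, 0.87 on the log2 scale, ranged from 0.80 to 0.96 with single libraries removed and from 0.86 to 0.92 under the other settings. The miR-212-5p difference, 0.43, ranged from 0.40 to 0.47 and from 0.42 to 0.48. The count of names passing was 2 of 273 in limma, 4 of 140 in edgeR (with miR-409b and miR-1298) and 5 in DESeq2 (with miR-448-3p as well). With single libraries removed it was 2 to 3 in limma. The tools thus tested different sets of names. With a replicate block it was also 2, although the numbers do not pair the libraries (correlations of same-numbered libraries -0.087 to 0.193, 2 of 11 over 0.1, and 1 control library closest to its own number). Each of these counts includes miR-132-3p and miR-212-5p, which were picked from this contrast, so nothing is read from the counts. For code 4 against code 1 the count was 0 to 1 with single libraries removed, with let-7c-5p passing without control replicate 3. The miR-132-3p difference between these codes, 0.02, changed sign under median-ratio scaling (-0.0096), edgeR (-0.0413) and DESeq2 (-0.0324), and ran from -0.16 to 0.15 with single libraries removed, never passing. For code 6 against code 3 the count was 1 in edgeR and 2 in DESeq2, and 0 to 2 with single libraries removed, with miR-1298 and miR-204-5p passing without CPF replicate 11. The cause of these changes was not tested. The wider name match, chosen after seeing the data, left 0 names passing in each of the 4 lists it enlarged. That count was bound to be 0, since the only names passing in limma, miR-132-3p and miR-212-5p, belong to none of the lists. No pair of the 4 names passed the adjusted threshold for correlation under any setting run (another pseudocount, another scaling, Spearman's rho, leaving out libraries). Pairs with a rare arm had too few reads to show a correlation, and the spread of miR-212-5p, close to that of counting, limits the remaining pair. Group differences of miR-132-5p and miR-212-3p, and their differences between codes, were not run under the alternatives because both lie near or under 3 reads. Depth of 47844 to 94980 reads limits the rare arms and leaves counting error in the abundant ones.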
